A study of Bos taurus with 4 samples.

Results

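The 6 genes HSPA1A, HSPA8, HSP90AA1, DNAJB1, ZFAND2A and CRYAB of the heat shock and proteotoxic stress response were followed in nuclei from the fat of cattle. They were picked by gene symbol, and each symbol matched 1 feature, so 6 of the 21861 features of the count matrices are described. The study sequenced single-nucleus RNA from 2 fat depots of 2 beef steers, intramuscular fat and subcutaneous fat of the back. Each animal gave 1 library per depot, which makes 2 intramuscular and 2 subcutaneous libraries. The animals were kept in a commercial feedlot and were not treated, and the sources used here give no breed, age or diet. Fresh tissue was minced on ice and opened with a Dounce homogenizer before droplet capture.

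Heat, unfolded proteins and a blocked proteasome release the transcription factor HSF1 from its chaperones, and HSF1 then switches on genes that refold or clear damaged protein. HSPA1A is the inducible HSP70, DNAJB1 is the J-domain partner that hands it clients, and ZFAND2A (AIRAP) is a stress-induced zinc finger protein that acts at the proteasome. HSPA8 is the cytosolic HSP70 that most cells keep at a steady level, HSP90AA1 is the stress-inducible form of cytosolic HSP90, and CRYAB is a small heat shock protein that is abundant in muscle, where it guards the contractile filaments.

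The libraries differed in depth and in the tissue they held. After filtering, 1774 and 63 nuclei with 2717458 and 105481 UMIs (unique molecule counts) were kept in the intramuscular libraries of animals 1 and 2, against 874 and 6126 nuclei with 1138601 and 4006966 UMIs in the subcutaneous libraries. Median UMIs per nucleus ran from 518 to 1100.5, and mitochondrial RNA took 0.0133% of UMIs in the intramuscular library of animal 2 and 1.24% to 1.65% in the other libraries. The library labelled intramuscular of animal 2 stands apart by its few nuclei. It was the lower of the intramuscular pair for 6 of 6 genes, a count given without the share over all genes. Skeletal muscle RNA lay in the libraries labelled subcutaneous. The 16 muscle fibre markers took 0.00283% and 0.00948% of UMIs in the intramuscular libraries of animals 1 and 2, with 12 and 3 markers detected, against 3.49% and 13.1% in the subcutaneous ones, where 16 of 16 were detected in each. MYH7, TNNT1, PYGM and ACTN2 were at 0 in both intramuscular libraries. The 13 adipocyte markers were detected in each library and took 0.957% and 1.34% of UMIs in intramuscular libraries, against 0.413% and 0.0355% in subcutaneous ones. Directions between depots below hold for the labels as given. Whether the depot labels are exchanged was not tested, and an exchange would turn each of these directions. Pairs of libraries shared 0 to 2 cell barcodes.

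Nuclei were assigned to types by marker genes that include no heat shock gene. In the order intramuscular animals 1 and 2, then subcutaneous animals 1 and 2, there were 819, 51, 137 and 35 adipocyte nuclei, 285, 1, 186 and 86 progenitor nuclei, and 223, 2, 153 and 220 endothelial nuclei. Mural nuclei (pericytes and smooth muscle) numbered 28, 0, 72 and 195, and macrophage nuclei 24, 0, 33 and 8. Muscle fibre nuclei were gated in the subcutaneous libraries alone, 139 and 4704 of them. Levels below are counts-per-million values (CPM), a gene's share of all UMIs of the nuclei summed, given for sums over at least 10 nuclei, and intervals are exact Poisson 95% intervals that cover counting error only. Where a depot has a pair of values, that of animal 1 stands before that of animal 2. In whole libraries, fewer cells of a type and less RNA per cell cannot be told apart.

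HSPA1A, the inducible HSP70, lay lower in the intramuscular pair of libraries than in the subcutaneous pair. It had 254 and 75.8 CPM in the intramuscular libraries of animals 1 and 2, against 656 and 2047 in the subcutaneous libraries, and the value of 75.8 rests on 8 UMIs. Within animal 1 the level in intramuscular fat was 0.386 times that in subcutaneous fat (0.348 to 0.429), and within animal 2 it was 0.0371 times (0.0160 to 0.0730). DNAJB1, its co-chaperone, had 57.0 and 47.4 CPM in intramuscular libraries, against 89.6 and 169 in subcutaneous ones. The depots did not overlap for either gene. Here and below, lack of overlap between 2 and 2 libraries describes these libraries and carries no test, and the share of all genes without overlap is not given. The within-animal ratio of DNAJB1 was 0.637 (0.493 to 0.826) in animal 1 and 0.280 (0.0905 to 0.656) in animal 2.

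The depots overlapped for HSPA8, the constitutive HSP70, and not for HSP90AA1, the inducible HSP90. HSPA8 had 647 and 85.3 CPM in intramuscular libraries, against 461 and 1252 in subcutaneous ones. The animals went opposite ways, with an intramuscular to subcutaneous ratio of 1.40 (1.27 to 1.55) in animal 1 and 0.0682 (0.0311 to 0.129) in animal 2. HSP90AA1 had 754 and 142 CPM in intramuscular libraries, against 842 and 1491 in subcutaneous ones. Both intramuscular libraries were lower, by little in animal 1, where the ratio was 0.895 (0.829 to 0.968), and by much in animal 2, where it was 0.0954 (0.0534 to 0.157).

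ZFAND2A went the other way from HSPA1A and DNAJB1. It had 215 and 66.4 CPM in intramuscular libraries, against 38.6 and 5.24 in subcutaneous ones. Both intramuscular libraries lay above both subcutaneous ones, with ratios of 5.57 (4.10 to 7.75) in animal 1 and 12.7 (4.55 to 30.9) in animal 2. CRYAB had 124 and 9.48 CPM in intramuscular libraries, the second from 1 UMI, against 1092 and 5183 in subcutaneous ones. The ratio for CRYAB was 0.114 (0.100 to 0.128) in animal 1 and 0.0018 (4.6e-05 to 0.0102) in animal 2, in the direction in which the muscle markers differed.

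**Figure D1:**
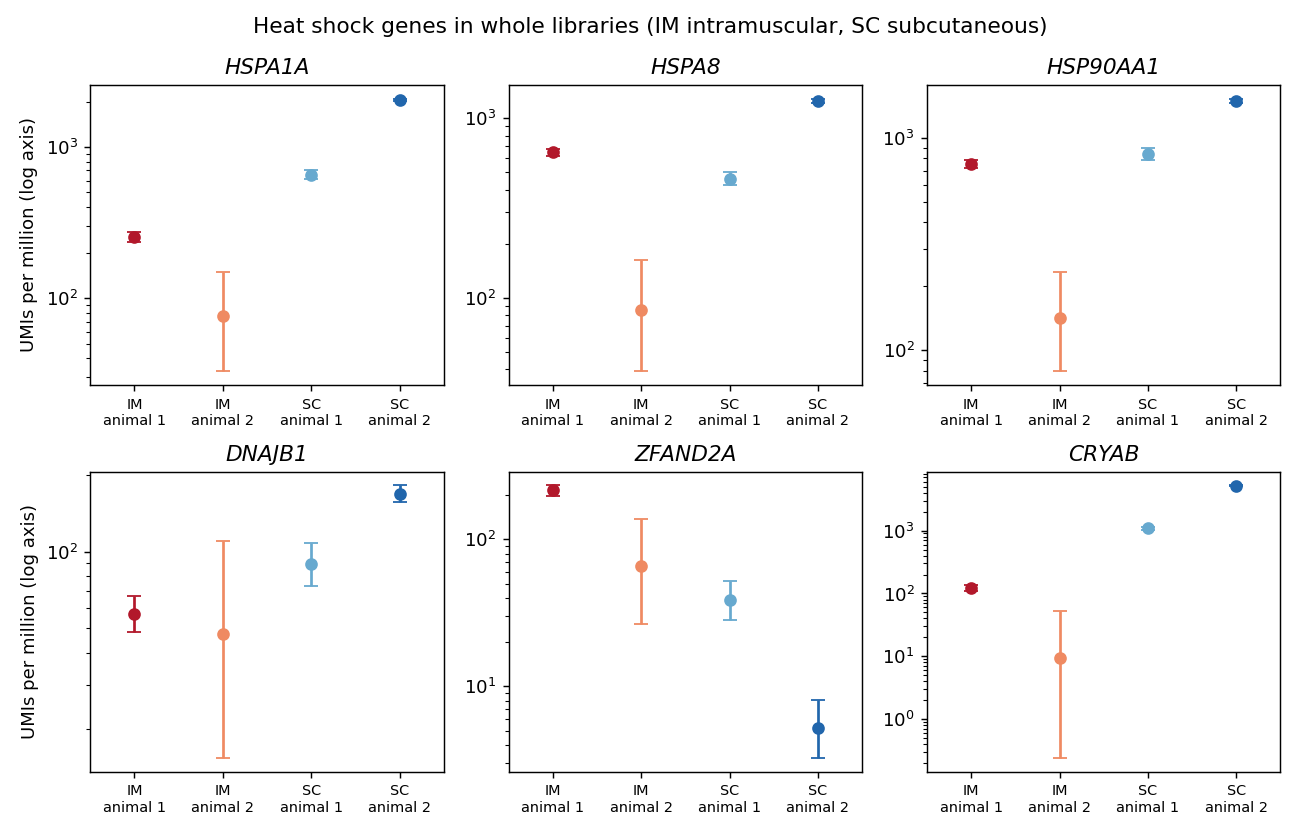
CPM (log axis) of the 6 genes in whole libraries, intramuscular (IM) left of subcutaneous (SC), 1 point per library with its exact Poisson 95% interval. ZFAND2A is higher in both intramuscular libraries, at 215 and 66.4 against 38.6 and 5.24, while HSPA1A, DNAJB1, HSP90AA1 and CRYAB are lower in both and HSPA8 overlaps.

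Over the 2 animals per depot, none of the 6 genes was called in whole libraries by edgeR's quasi-likelihood test, with p adjusted after Benjamini and Hochberg over 11143 genes. Of all genes 1.53% were called, 0.0538% higher and 1.47% lower. The libraries of a depot were far apart. HSPA1A averaged 165 ± 126 CPM in intramuscular libraries and 1352 ± 983 in subcutaneous ones (SD, n = 2 each). Log2 fold changes of intramuscular over subcutaneous were -4.11 (SE 1.84) for HSPA1A, -2.25 (SE 1.62) for HSPA8 and -2.33 (SE 1.65) for HSP90AA1. They were -2.32 (SE 0.99) for DNAJB1, 2.48 (SE 0.92) for ZFAND2A and -6.59 (SE 2.63) for CRYAB, beside a median of -0.16 over all genes tested. Adjusted p-values from edgeR ranged from 0.338 for ZFAND2A to 0.663 for HSPA8. At an unadjusted p under 0.05 there were 4 of the 6, HSPA1A, DNAJB1, ZFAND2A and CRYAB. The last of them by p, HSPA1A, ranked 1061 of 11143 genes. DESeq2's Wald test called HSPA1A (adjusted p = 0.0177) and CRYAB (adjusted p = 3.59e-05). Without the shallow intramuscular library of animal 2, ZFAND2A passed with 3.18 (edgeR adjusted p = 0.0362), with the lone intramuscular library assumed to vary like the subcutaneous pair. Without the subcutaneous library of animal 2, HSPA1A came to -2.02, CRYAB to -3.95 and HSPA8 to -0.34.

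By type of nucleus, HSPA1A was concentrated in the endothelium of 1 library. Endothelial nuclei, which line blood vessels, had 267 CPM in the intramuscular library of animal 1, against 327 in the subcutaneous library of animal 1 and 13521 in that of animal 2. The last value comes from 3136 UMIs in 220 nuclei and stands far above the others, while within animal 1 the depots differed by no more than counting error, with a ratio of 0.818 (0.595 to 1.12). Progenitor nuclei, the stromal cells from which adipocytes form, had 200 CPM in the intramuscular library of animal 1, against 711 and 3989 in subcutaneous ones. Mural nuclei had 146 against 437 and 1713. Macrophage nuclei had 40.9 in the intramuscular library of animal 1, from 1 UMI, against 3414 in the subcutaneous library of animal 1, a ratio of 0.0120 (3.0e-04 to 0.0680). Adipocyte nuclei had 277 and 72.5 in intramuscular libraries, against 686 and 242 in subcutaneous ones, and the depots overlapped there. Muscle fibre nuclei had 578 and 765 in the subcutaneous libraries. In the subcutaneous library of animal 2 the order was therefore endothelial, progenitor, mural, muscle fibre and adipocyte, with no overlap of counting intervals between neighbours. The sum of 10 satellite nuclei there, at 1866 (931 to 3338) from 11 UMIs, overlapped mural nuclei and lay below progenitor nuclei (3493 to 4535). The 868 nuclei in no gate of that library had 4538 (4353 to 4728), from 2273 UMIs, and overlapped progenitor nuclei. In the intramuscular library of animal 1, the 84 UMIs in endothelial nuclei and the 473 in adipocyte nuclei gave levels that counting error does not separate.

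**Figure D2:**
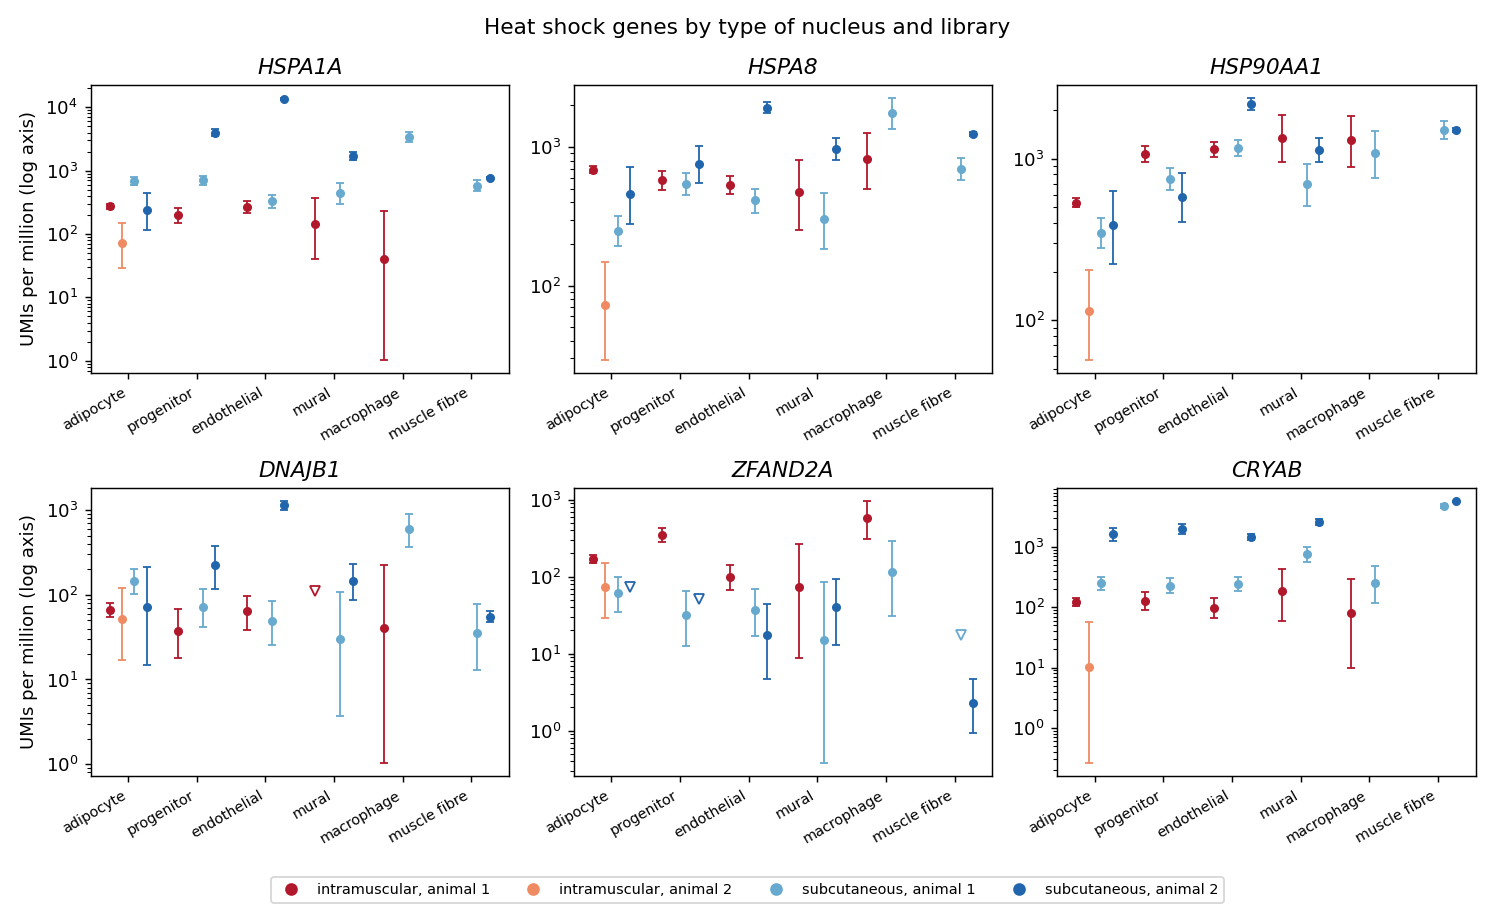
CPM (log axis) of each gene by marker-gated type of nucleus, 1 point per library with its exact Poisson 95% interval, for sums of at least 10 nuclei. Open triangles mark the level that a count of 0 allows. HSPA1A and DNAJB1 reach 13521 and 1138 in endothelial nuclei of the subcutaneous library of animal 2, and ZFAND2A is highest in intramuscular progenitor and macrophage nuclei, at 347 and 572.

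The HSPA1A signal of that endothelium was spread over most of its nuclei. With each nucleus thinned to 400 UMIs, 86.7% of 195 endothelial nuclei of the subcutaneous library of animal 2 held an HSPA1A UMI (89.5% unthinned, median depth 687.5 UMIs). In endothelial nuclei of animal 1 the thinned share was 4.93% in the intramuscular library (22.4% unthinned, median depth 914) and 10.5% in the subcutaneous library (28.8% unthinned, median depth 952). No type is known to lack HSPA1A, so the level that free RNA could give was not measured. In the same library the thinned share was 3.23% of 31 adipocyte nuclei (22.9% unthinned, median depth 715) and 47.1% of 70 progenitor nuclei (43 of 86 unthinned, median depth 552). It was 35.2% of 145 mural nuclei (44.6% unthinned, median depth 491) and 22.8% of 3720 muscle fibre nuclei (31.0% unthinned, median depth 525). Thinning left out 1353 of 8837 nuclei as too shallow.

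DNAJB1 was high in the same nuclei. Endothelial nuclei had 63.6 CPM of DNAJB1 in the intramuscular library of animal 1, against 49.0 and 1138 in the 2 subcutaneous libraries. The nuclei in no gate of the subcutaneous library of animal 2 had 423 CPM. After thinning, 28.7% of endothelial nuclei of the subcutaneous library of animal 2 held a DNAJB1 UMI (41.4% unthinned), against 2.15% of muscle fibre nuclei of that library (3.08% unthinned). Of its endothelial nuclei with an HSPA1A UMI, 32.0% of 169 also held DNAJB1, against 7.69% of 26 without one. Both genes were also high in subcutaneous macrophage nuclei of animal 1, where DNAJB1 had 597 CPM from 21 UMIs, against 40.9 from 1 UMI in the intramuscular library of that animal. In whole libraries the top 1% of nuclei held 50.4% of the DNAJB1 UMIs and 26.9% of the HSPA1A UMIs of the subcutaneous library of animal 2.

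The ratio of inducible to constitutive HSP70 showed the same nuclei. The number of HSPA1A UMIs per HSPA8 UMI was 0.500 (0.380 to 0.654) in endothelial nuclei of the intramuscular library of animal 1, against 0.792 (0.583 to 1.07) and 7.03 (6.37 to 7.78) in the 2 subcutaneous libraries. Progenitor nuclei had 0.346 in the intramuscular library of animal 1, against 1.32 and 5.30 in the subcutaneous ones. Muscle fibre nuclei stayed at 0.831 and 0.611. Over all nuclei the ratio was 0.392 and 0.889 in intramuscular libraries, against 1.42 and 1.64 in subcutaneous ones. Both subcutaneous libraries thus had more HSPA1A than HSPA8 UMIs. The value of 0.889 rests on 8 HSPA1A and 9 HSPA8 UMIs.

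The endothelial nuclei of the depots were not the same clusters. Of the endothelial nuclei, 95.1% of those in the intramuscular library of animal 1 lay in cluster 1, against 29.4% and 0.909% of those in the subcutaneous libraries, whose other large clusters were 14 (50.3% and 39.1%) and 8 (16.3% and 55.0%). HSPA1A is among the 10 leading genes of clusters 8 and 14, which describes those clusters and is no test. Within these clusters the animals still differed. Cluster 14 had 322 CPM of HSPA1A in the subcutaneous library of animal 1 and 17695 in that of animal 2, and cluster 8 had 180 and 9947. Muscle markers took 0.767% of the UMIs of endothelial nuclei in the subcutaneous library of animal 1 and 4.25% in that of animal 2. HSPA1A did not keep 1 ratio to them, with 319 HSPA1A UMIs per 1000 muscle marker UMIs in endothelial nuclei of animal 2 and 5.03 in its muscle fibre nuclei.

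In tests within a type, 1 intramuscular library was set against 2 subcutaneous ones for progenitor, endothelial and mural nuclei, and the lone library was assumed to vary like the other depot's. Among endothelial nuclei 4.84% of 6111 genes were called by edgeR, and none of the 6 was. HSPA1A had a log2 fold change of -4.70 (SE 1.56, edgeR adjusted p = 0.121), DNAJB1 one of -3.21 (SE 1.24), CRYAB one of -3.11 (SE 0.94) and ZFAND2A one of 1.94 (SE 0.60). HSPA8 and HSP90AA1 were at -1.11 and -0.49, beside a median of -0.01 over all genes. These calls turned on the settings. HSPA1A, DNAJB1 and CRYAB passed with the size factors of DESeq2, without the count filter and under a stricter gate, but not under DESeq2's Wald test or with clusters in place of the gate. ZFAND2A passed without the count filter and under the stricter gate. With 1 intramuscular sum in this fit, no count at an unadjusted p is given.

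Across types, endothelial nuclei had more HSPA1A and DNAJB1 than the mean of the other types, and this rested on the subcutaneous library of animal 2. In 1 fit over 18 sums of library and type, with the library as a block, edgeR called HSPA1A at a log2 fold change of 1.51 (SE 0.37, adjusted p = 0.00126), DNAJB1 at 1.56 (SE 0.37, adjusted p = 5.72e-04) and HSP90AA1 at 0.83 (SE 0.29, adjusted p = 0.0349). Of 8450 genes, 14.1% were called in this contrast, 13.6% higher and 0.521% lower, and the median over all genes was 0.83. That median was shifted by a shallow sum of 10 satellite nuclei. Without it the median was 0.22, and HSPA1A, DNAJB1 and HSP90AA1 were at 1.23, 1.25 and 0.75. Without the subcutaneous library of animal 2, HSPA1A came to -0.42, DNAJB1 to 0.02 and HSP90AA1 to 0.34, and none was called. HSP90AA1 was also not called under the stricter gate or in nuclei with at least 500 genes. DESeq2's Wald test did not call HSPA1A (adjusted p = 0.310) or DNAJB1 (adjusted p = 0.140) either. In macrophage nuclei 2.07% of genes were called, 1.99% higher and 0.0828% lower. There edgeR called DNAJB1 at 2.58 (SE 0.60, adjusted p = 0.00287) and not HSPA1A (1.54, adjusted p = 0.0866). DESeq2's Wald test did not call DNAJB1 (adjusted p = 0.375). Of the 2 macrophage sums, 1 was high in DNAJB1, at 597 CPM from 21 UMIs in the subcutaneous library of animal 1. The intramuscular one had 40.9 from 1 UMI, beside 66.7 in adipocyte and 63.6 in endothelial nuclei of its library.

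ZFAND2A in progenitor nuclei was the 1 case among the 6 genes that edgeR called between depots within a type. Progenitor nuclei had 347 CPM in the intramuscular library of animal 1, from 94 UMIs, against 31.5 in the subcutaneous library of animal 1 and 0 in that of animal 2, where a count of 0 allows up to 51.4. The log2 fold change of ZFAND2A was 3.99 (SE 0.75, edgeR adjusted p = 1.52e-05) in a comparison in which 2.29% of 5987 genes were called. This fit set 1 intramuscular sum against 2 subcutaneous ones and had 1 residual degree of freedom. The intramuscular level was above both subcutaneous ones, and within animal 1 the ratio was 11.03 (5.15 to 28.2). DESeq2's Wald test gave a like size, 4.24, and did not call it (adjusted p = 0.243). HSPA1A, DNAJB1 and CRYAB were at -3.53, -1.75 and -3.05 in the same nuclei and HSPA8 and HSP90AA1 at -0.11 and 0.74, none of them called. The progenitor clusters, 0 and 7, were split by depot. Cluster 0 held 553 nuclei of the intramuscular library of animal 1 and 10 of the subcutaneous library of animal 1. Cluster 7 had sums in the subcutaneous libraries alone, of 167 and 211 nuclei. ZFAND2A had 503 CPM (439 to 573) against 373 (102 to 956), from 4 UMIs, in cluster 0. It had 5.80 and 0 in cluster 7, and the part of this split in the call was not tested.

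The share of progenitor nuclei with a ZFAND2A UMI followed the level. After thinning it was 12.98% in the intramuscular library of animal 1 (18.2% unthinned, median depth 748), against 0.538% (2.15% unthinned, median depth 790.5) and 0% (0% unthinned, median depth 552) in the subcutaneous libraries. Muscle fibre nuclei, with the lowest levels of this gene, gave 0% and 0.0269%. In the other types the direction was the same where counts allowed a reading. Adipocyte nuclei had 170 and 72.5 CPM in intramuscular libraries, against 61.3 in the subcutaneous library of animal 1 and 0 in that of animal 2, where 0 allows up to 72.7. Endothelial nuclei had 98.6 against 36.7 and 17.2, and macrophage nuclei 572 against 114 in animal 1, a ratio of 5.03 (1.58 to 21.0). Mural nuclei had 73.1, from 2 UMIs, against 15.1 and 40.4, and these counts do not separate the depots. Muscle fibre nuclei had 0 and 2.31 CPM in the subcutaneous libraries, and without the satellite sum ZFAND2A was lower there than in the other types by edgeR (log2 fold change -2.35, SE 0.75, adjusted p = 0.00846). With that sum, 1.54% of genes were called lower there, ZFAND2A not among them.

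**Figure D3:**
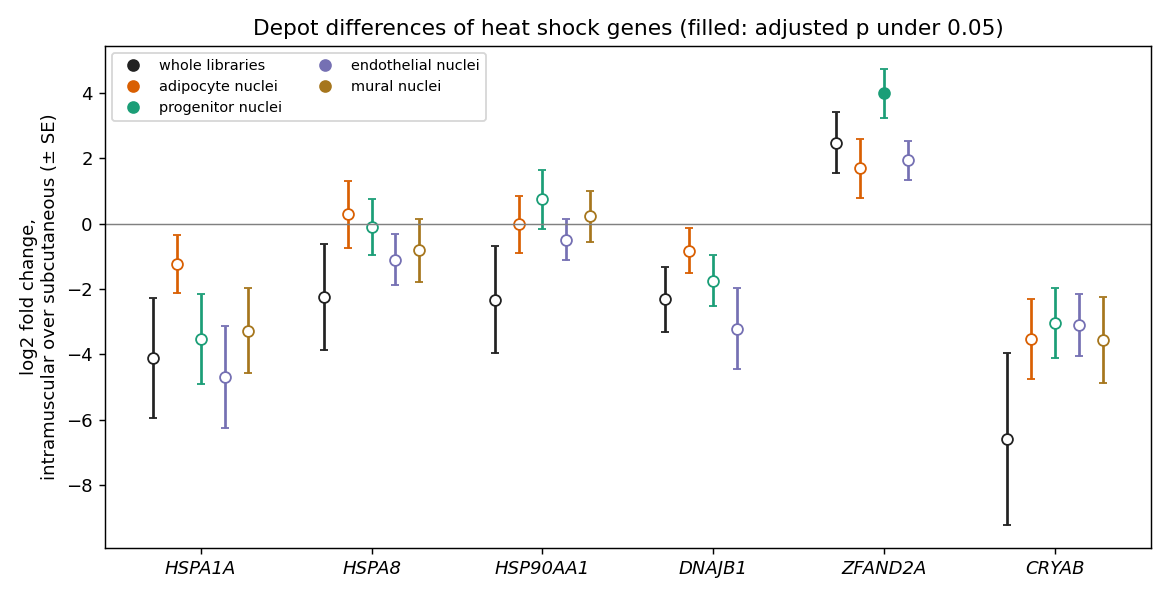
Log2 fold changes of intramuscular over subcutaneous (± SE, from edgeR) for the 6 genes in whole libraries and within 4 types of nucleus. Filled points passed an adjusted p of 0.05. ZFAND2A in progenitor nuclei, at 3.99, is the filled point. In mural nuclei DNAJB1 and ZFAND2A were too low to test.

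Among the gated types CRYAB was highest in muscle fibre nuclei. Muscle fibre nuclei had 4757 and 5704 CPM in the 2 subcutaneous libraries, and edgeR called CRYAB higher than in the other types, at a log2 fold change of 4.65 (SE 0.34, adjusted p = 1.97e-24), with 27.3% of genes called and a median of 0.86 over all genes (0.04 without the satellite sum, where CRYAB was at 4.20). Clusters named muscle fibre differed in the subcutaneous library of animal 2. Cluster 15 had 21101 CPM, from 2241 UMIs in 113 nuclei, and the others had 2842 to 6560. CRYAB is among the 10 leading genes of cluster 15, which describes that cluster and is no test. The nuclei in no gate of that library had 5161 CPM. The other types of the same libraries held CRYAB too. Adipocyte nuclei had 123 and 10.4 CPM in intramuscular libraries, the second from 1 UMI, against 253 and 1624 in subcutaneous ones. Progenitor nuclei had 129 against 230 and 1969, endothelial nuclei 98.6 against 245 and 1479, and mural nuclei 183 against 754 and 2561. In each of these types the subcutaneous library of animal 2 was highest, and it was also the library with the most muscle RNA.

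Set against the muscle markers, CRYAB was nearly level across types. In the subcutaneous library of animal 1 there were 40.6 CRYAB UMIs per 1000 muscle marker UMIs in adipocyte nuclei, 27.5 in progenitor, 31.9 in endothelial, 31.9 in mural and 31.2 (29.1 to 33.4) in muscle fibre nuclei. In that of animal 2 the values were 37.5, 36.2, 34.8 and 32.4 in the same order, and 37.5 (36.9 to 38.1) in muscle fibre nuclei. One source of free RNA would keep such a ratio, and its part in the depot difference of CRYAB was not tested. The nuclei in no gate of animal 2 had 70.3 (67.7 to 73.1). The intramuscular library of animal 1 had 337 CRYAB UMIs beside 77 muscle marker UMIs, so its lower CRYAB level did not keep that ratio. HSPA1A did not keep it in the subcutaneous libraries either, with 3.79 to 286 per 1000 muscle marker UMIs over the types of animal 1.

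**Figure D4:**
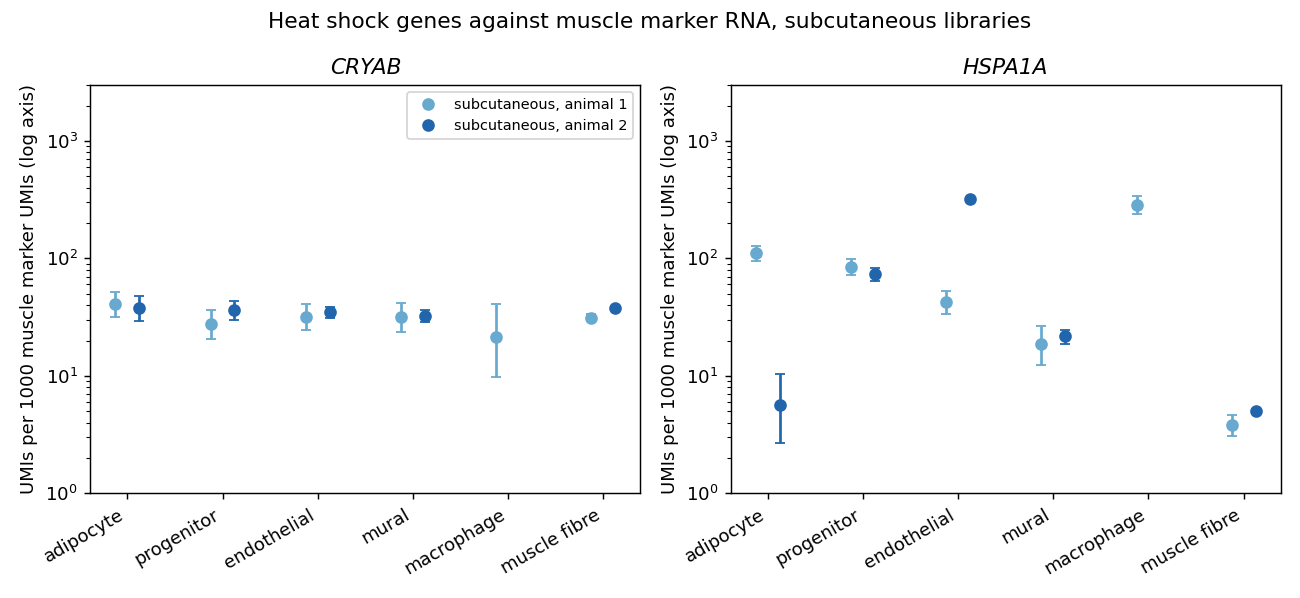
UMIs of CRYAB and HSPA1A per 1000 UMIs of the muscle markers (log axis) by type of nucleus in the subcutaneous libraries, with exact Poisson 95% intervals. CRYAB stays between 21.5 and 40.6 across the types, while HSPA1A ranges from 3.79 in muscle fibre nuclei to 319 in endothelial nuclei.

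HSPA8 and HSP90AA1 were called higher in muscle fibre nuclei than in the mean of the other types, and HSP90AA1 was called lower in adipocyte nuclei. HSP90AA1 had 1509 CPM in muscle fibre nuclei of each subcutaneous library. In adipocyte nuclei it had 535 and 114 in intramuscular libraries, against 349 and 388 in subcutaneous ones. EdgeR called it higher in muscle fibre nuclei by 2.34 (SE 0.32, adjusted p = 2.98e-10) and lower in adipocyte nuclei by a log2 fold change of -1.47 (SE 0.34, adjusted p = 6.62e-04), where 16.6% of genes were called, 13.9% higher and 2.64% lower. Progenitor nuclei had 1072 in the intramuscular library of animal 1 against 752 and 582 in subcutaneous ones, and mural nuclei 1353 against 694 and 1131. Macrophage nuclei had 1308 against 1081 in animal 1, and endothelial nuclei 1145 against 1168 and 2177. The range of mural nuclei overlapped those of the other 3 types. Progenitor nuclei lay below endothelial and macrophage nuclei, but the nearest values were within counting error. These were 1072 (952 to 1203) in progenitor, 1145 (1029 to 1269) in endothelial and 1081 (765 to 1484) in macrophage nuclei. HSPA8 was also called higher in muscle fibre nuclei, at 1.84 (SE 0.34, edgeR adjusted p = 2.23e-06), with 696 and 1252 CPM there. It had 685 and 72.5 in adipocyte nuclei of intramuscular libraries, against 249 and 461 in subcutaneous ones. Progenitor nuclei had 577 against 540 and 753, endothelial nuclei 534 against 412 and 1923, mural nuclei 475 against 302 and 970, and macrophage nuclei 817 against 1764 in animal 1. These ranges overlapped, except that progenitor nuclei lay below macrophage nuclei. The nearest values of those 2 types, 753 (547 to 1011) and 817 (499 to 1262), were within counting error. The median over all genes in the muscle fibre contrast was 0.86, or 0.04 without the satellite sum. In CPM, muscle fibre nuclei were not the highest type for both genes. In the subcutaneous library of animal 2 endothelial nuclei were above them, at 2177 against 1509 for HSP90AA1 and 1923 against 1252 for HSPA8. In that of animal 1 endothelial nuclei were below them, at 1168 against 1509 and 412 against 696, and macrophage nuclei had 1764 of HSPA8. HSPA1A was not called higher in muscle fibre nuclei (0.32, edgeR adjusted p = 0.812). None of the 6 genes was called in progenitor or mural nuclei against the other types by edgeR, where 7.16% of genes (7.01% higher, 0.154% lower) and 4.4% (4.34% higher, 0.0592% lower) were. At an unadjusted p under 0.05 CRYAB in mural nuclei was the 1 case, ranking 1006 of 8450 genes, and DESeq2's Wald test called none.

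Within adipocyte nuclei, the type with sums from 4 libraries, no depot difference of the 6 genes passed edgeR, which called 0.752% of 4255 genes. Log2 fold changes were -1.25 for HSPA1A, 0.28 for HSPA8, -0.02 for HSP90AA1, -0.83 for DNAJB1, 1.69 for ZFAND2A and -3.52 for CRYAB (edgeR adjusted p = 0.913). CRYAB alone had an unadjusted p under 0.05, ranking 76 of 4255 genes, and DESeq2's Wald test called none of the 6. The animals went opposite ways for HSPA8, with ratios of 2.75 (2.14 to 3.59) in animal 1 and 0.157 (0.0559 to 0.391) in animal 2, and for HSP90AA1, with 1.53 and 0.294. For HSPA1A they went the same way, with 0.404 (0.339 to 0.482) and 0.299 (0.0967 to 0.871). Leaving out 1 intramuscular library changed calls, again with the lone library assumed to vary like the subcutaneous pair. Without that of animal 1, HSPA1A was at -2.88 (edgeR adjusted p = 0.00446) and CRYAB at -6.47, both called. Without that of animal 2, CRYAB was called at -2.62 (edgeR adjusted p = 0.0359). In mural nuclei none of 2002 genes was called by edgeR, 296 had an unadjusted p under 0.05, and DESeq2's Wald test called 41, while HSPA1A was at -3.27 (SE 1.29) and CRYAB at -3.57 (SE 1.31).

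Other genes of the response were described as lists. Of the HSF1-induced chaperones and their partners, a list that holds HSPA1A, HSP90AA1, DNAJB1, ZFAND2A and CRYAB, 0 of 22 tested were called between depots in whole libraries by edgeR, 11 had an unadjusted p under 0.05 and DESeq2's Wald test called 3. Over all 11143 genes 1192 had an unadjusted p under 0.05 and the Wald test called 337, and 4 of the 11 are among the 6 genes above. The list had a median of -2.21 on the log2 scale, beside -0.16 over all genes. FKBP4 and STIP1, co-chaperones of HSP90, were at -3.55 and -3.09. Of 23 constitutive chaperones 0 were called by either tool and 1 had an unadjusted p under 0.05, with a median of -1.40 in edgeR, and the smallest p belonged to CCT7, a subunit of the chaperonin that folds actin and tubulin, at -1.93. Small heat shock proteins had the lowest median of the 7 lists, at -6.23, and edgeR called 2 of 7 lower, beside 1.47% of all genes. This list also holds CRYAB. HSPB7, known from heart and skeletal muscle, had 0 UMIs in both intramuscular libraries against 130 and 173 CPM in subcutaneous ones, at least 4.57-fold lower by a floor of 3 counts per library (edgeR adjusted p = 0.0337). HSPB6, abundant in muscle, fell to 10.7 and 0 CPM in intramuscular libraries, against 286 and 361 in subcutaneous ones (log2 fold change -6.18, edgeR adjusted p = 0.0485). With HSPB7 at its bound the median of the list was -6.18. The muscle markers moved with these genes. In sums without muscle fibre and satellite nuclei edgeR called 0 genes, 837 had an unadjusted p under 0.05, and the calls of HSPB7 and HSPB6 ended. They also ended without the intramuscular library of animal 1, where 24 genes were called, all higher.

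Lists of protein clearance and of the endoplasmic reticulum gave few calls. Of 21 ubiquitin and proteasome genes, TRIM63 (MuRF1), a ubiquitin ligase of muscle, was called in whole libraries, beside 1.47% of all genes called lower. It had 0 UMIs in both intramuscular libraries against 72.9 and 218 CPM in subcutaneous ones, at least 2.56-fold lower. This call, too, ended in sums without muscle fibre and satellite nuclei and without the intramuscular library of animal 1. The list had a median of -1.49, or -1.45 with TRIM63 at its bound. None of 21 genes of the unfolded protein response and none of 7 heat shock regulators was called by edgeR or DESeq2's Wald test, or had an unadjusted p under 0.05, with medians of -0.997 and -0.21. HSF1 itself was at -1.26.

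Immediate early genes, transcription factors and feedback regulators that cells induce within minutes of a stimulus, lay on the other side. In whole libraries 14 of 16 had positive log2 fold changes, where 43.8% of all genes did. Their median was 1.003, beside -0.16 over all genes. Neither edgeR nor DESeq2's Wald test called any, and 1 had an unadjusted p under 0.05. In progenitor nuclei 16 of 16 were positive, where 48.8% of all genes were, with a median of 1.96 beside -0.03 over all genes. EdgeR called 3 of them higher, where 0.534% of all genes were, and DESeq2's Wald test called 1. FOSB had 4569 CPM in the intramuscular library of animal 1, against 414 and 17.1 in the subcutaneous libraries (4.41, edgeR adjusted p = 0.00881), BTG2 had 603 against 99.0 and 17.1, and ATF3 had 495 against 158 and 17.1. The progenitor clusters were split by depot. Cluster 0 held 553 nuclei of the intramuscular library of animal 1 and 10 of the subcutaneous library of animal 1. Cluster 7 had sums in subcutaneous libraries alone. JUN and FOSB are among the 10 leading genes of cluster 0, which describes that cluster and is no test. The part of this split in the progenitor values was not tested. In endothelial nuclei edgeR called 4 of 16 higher, FOS, FOSB, BTG2 and MYC, where 2.08% of all genes were, and the list had a median of 0.93. DESeq2's Wald test called 2 of the 16. With clusters in place of the gate edgeR called 0 genes of any kind in endothelial nuclei (706 at an unadjusted p under 0.05), and the gated nuclei of the depots lay largely in different clusters, 1 against 8 and 14. FOS had 1847 against 404 and 241, and MYC 483 against 61.2 and 21.6. In adipocyte nuclei 15 of 15 were positive, where 53.3% of all genes were, with a median of 2.21 beside 0.05 over all genes. None was called by edgeR or DESeq2's Wald test. At an unadjusted p under 0.05 there were 6, a count given without the share over all genes.

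Within types the HSF1-induced list lay closer to the rest than in whole libraries. Its median was -0.23 in adipocyte, -0.15 in progenitor, -0.63 in endothelial and -1.23 in mural nuclei, beside medians over all genes of 0.05, -0.03, -0.01 and -0.20. Small heat shock proteins had medians of -3.28, -3.05, -3.21 and -3.57 in the same types. In progenitor nuclei edgeR called 3 of 5 of them lower, where 1.75% of all genes were: HSPB2, HSPB6 and HSPB8. FBXO32 (atrogin-1), a ubiquitin ligase of muscle, was called lower too. It had 3.70 CPM in the intramuscular library of animal 1 against 72.0 and 223 in the subcutaneous ones, from 1, 16 and 13 UMIs. HSPB2 likewise had 1 UMI in progenitor nuclei of that intramuscular library, against 4 and 16. Muscle markers took 0.00665% of the UMIs of progenitor nuclei in that intramuscular library and 0.835% and 5.44% in the subcutaneous ones, and their part was not tested. DESeq2's Wald test called none of these small heat shock proteins, nor FBXO32. In endothelial nuclei HSPB6 and HSPB8 were called lower, where 2.77% of all genes were. HSPA2, a testis-enriched HSP70 that other tissues also make, was called higher there, with 114 CPM in the intramuscular library of animal 1 against 8.17 and 8.62. Of these, DESeq2's Wald test called 1 small heat shock protein and not HSPA2, and with clusters in place of the gate none was called.

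**Figure D5:**
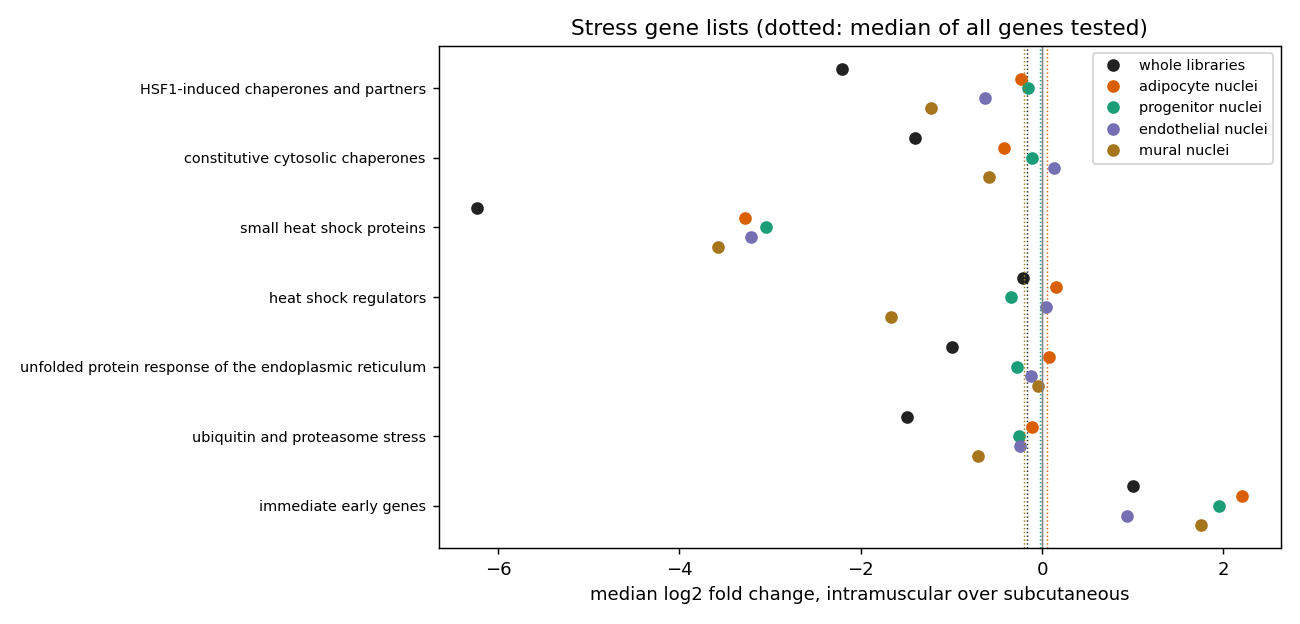
Median log2 fold change of intramuscular over subcutaneous for 7 stress gene lists, 1 point per comparison, with the median of all genes tested in that comparison as a dotted line. Small heat shock proteins lie lowest, at -6.23 in whole libraries and -3.05 to -3.57 within types, and immediate early genes highest.

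Across types, muscle fibre nuclei held most of the calls of these lists. EdgeR called 15 of 23 HSF1-induced genes higher there, 19 of 21 constitutive chaperones, 6 of 6 small heat shock proteins and 18 of 20 ubiquitin and proteasome genes, where 25.7% of all genes were. The medians were 2.19, 2.04, 4.38 and 2.45, beside 0.86 over all genes. Without the satellite sum the median over all genes was 0.04, and calls of the lists without it are not given. Calls did not always follow CPM in the subcutaneous libraries. DNAJA1, called at 2.91, had 70.7 and 123 in muscle fibre nuclei, against 106 and 181 in endothelial nuclei. BAG3, called at 3.10, did follow it, with 318 and 271 against 53.1 and 241. The cause was not tested. In endothelial nuclei, where 13.6% of all genes were called higher, so were 6 of 23 HSF1-induced genes, HSPA1A, DNAJB1, HSP90AA1, DNAJA1, DNAJB4 and HSPB1, with a list median of 0.48 beside 0.83. DNAJB4, a J-domain protein of the same family as DNAJB1, had 111 CPM in endothelial nuclei of the intramuscular library of animal 1, against 355 and 1056 in the subcutaneous ones. Immediate early genes were called higher in endothelial nuclei for 13 of 16.

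Over the 17 sums of library and type with at least 20 nuclei, the 6 genes were compared by pairs. On log2 of the level plus 10 CPM, HSPA1A and DNAJB1 had a Pearson r of 0.82 and HSPA8 and HSP90AA1 one of 0.80, while ZFAND2A had -0.47 with HSPA1A and -0.78 with CRYAB. Outside the stress lists, among 4260 genes with a mean of at least 50 CPM, the patterns most like CRYAB were those of GAPDH, SLC25A4 and ALDOA (0.98, 0.97 and 0.96), genes of sugar breakdown and of the mitochondrial ADP/ATP exchange. Most like ZFAND2A were DDRGK1, TYK2 and TALDO1 (0.91, 0.88 and 0.87), most like HSPA8 were MED21, ROMO1 and PFDN6 (0.83, 0.82 and 0.81), most like HSPA1A were WBP11, PLCD4 and ZBTB18 (0.80, 0.74 and 0.73), and most like DNAJB1 were NPEPPS, PLOD1 and PDZD8 (0.77, 0.76 and 0.75). The sums share libraries, depth and muscle RNA, so these values describe the 17 sums and carry no test.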

How the data were processed

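Single-nucleus RNA was sequenced with 10x Genomics 3' chemistry. The deposited matrices give UMI counts, not normalized, for each gene and barcode. The authors made them with Cell Ranger 6.0.1, per the file headers, on ARS-UCD1.2, per the submitters' processing notes. No source used here gives the annotation release. The 6 genes and 7 lists were chosen with earlier results of these data known.

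Nuclei with at least 200 genes and under 10% mitochondrial UMIs were kept, 8837 in all. A nucleus joined a type with at least 2 UMIs from 2 of its markers and a marker share of UMIs over a minimum, 0.6% for adipocyte, 1.0% for progenitor, 0.3% for endothelial, mural and macrophage, 10% for muscle fibre and 0.2% for satellite. These minimums were set after marker shares were seen. The 587 nuclei over several gates went to the type furthest over its minimum. Doublets were not called and were kept, which can mix types. Clusters (scanpy 1.11.5) came from 2000 variable genes, 30 components and resolution 1.0.

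Nuclei are not replicates, so counts were summed per library, or per library and type with at least 10 nuclei. Tests used edgeR 4.0.16 (filterByExpr, TMM, quasi-likelihood F test) in R 4.3.3, with Benjamini-Hochberg adjustment over all genes tested and a threshold of 0.05. SE is the size of the log2 fold change divided by the root of F. The steps were tested on simulated data. Alternatives were DESeq2 1.42.0, other filters, gates and clusters, the animal as a block and single libraries left out. The animal numbers pair the libraries by the labels, which name the animal, yet deviations of same-numbered libraries correlated at -0.15 over 4233 genes.

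Named genes were the 6, members of each list past the threshold or with the smallest p, and the 3 most alike outside the lists. Some of these were left out for length, and the genes most like HSP90AA1 are not reported here. HSPA1B, a near-identical copy of HSPA1A, was not matched, so HSPA1A may hold its reads. In the RefSeq table of ARS-UCD2.0, DNAJB1 overlaps a pseudogene and HSPA8 holds snoRNA genes. Coordinates and sequences were not used here, because no genome of the files' build was at hand. Macrophage nuclei had 1 library per depot and satellite nuclei 1 sum, so neither difference was tested.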

Additional observations from a re-analysis of the deposited data

Results flagged for a closer look

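HSP90AA1 had opposite signs between depots in different types. In progenitor nuclei its log2 fold change of intramuscular over subcutaneous was 0.74 (SE 0.90) and in endothelial nuclei -0.49 (SE 0.63), a difference of 1.24. In mural nuclei it was 0.22 (SE 0.78), a difference of 0.71 from endothelial nuclei. What drew attention is that the intramuscular library lay above both subcutaneous libraries in progenitor and mural nuclei and below both in endothelial nuclei. The nearest libraries lay within counting error in endothelial nuclei, at 1145 (1029 to 1269) against 1168 CPM (1036 to 1311), and in mural nuclei, at 1353 (953 to 1865) against 1131 CPM (952 to 1335). The difference was not tested, and each value rests on 1 intramuscular library.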

How the results depend on the processing

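Alternatives moved the counts of called genes more than the signs of the 6 genes. Apart from single libraries left out, 151 of 174 depot values and 210 of 252 type values kept their direction and their side of the threshold.

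Between depots in whole libraries, 170 genes were called. DESeq2's Wald test called 337, no count filter 444, and sums without muscle fibre and satellite nuclei 0 (837 at an unadjusted p under 0.05). Leaving out 1 library gave 24 to 411. In adipocyte nuclei 32 were called, 51 by the Wald test, 93 with no filter and 29 to 347 with 1 library left out. In progenitor nuclei 137 were called, 81 with DESeq2's size factors, 51 by the Wald test and 79 in nuclei with at least 500 genes. In endothelial nuclei 296 were called (127 higher, 169 lower), 66 by the Wald test (12 and 54), 520 with no filter, 56 with at least 500 genes, 455 with the stricter gate and 0 with clusters in place of the gate (706 unadjusted). In mural nuclei 0 were called, 41 by the Wald test, 105 with no filter, 12 with at least 500 genes, 120 with the stricter gate and 151 with clusters. The cause of these differences was not tested. For these 3 types, leaving out a library ends the fit or leaves 1 against 1.

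With the animal as a replicate block, 199 genes were called in whole libraries and 34 in adipocyte nuclei, none of the 6 among them, and HSPA8 in adipocyte nuclei reversed to -0.27. The block changed no other call. With crossed numbers as the replicate block, chosen after seeing the data, 589 and 52 were called. In the other types no block could be fitted.

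Between types, adipocyte nuclei had 1399 called genes (1176 higher, 223 lower), against 2270 with the stricter gate, 2313 with clusters and 2363 (1273 and 1090) without the satellite sum, an alternative added after seeing the data. DESeq2's Wald test called 359 in progenitor nuclei (main count 605), 205 in mural (372) and 105 in macrophage nuclei (175), and clusters gave 610 in macrophage nuclei. With 1 library left out the counts ran from 763 to 2183 in adipocyte, 294 to 688 in progenitor, 637 to 1250 in endothelial and 152 to 386 in mural nuclei.

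Signs reversed as follows (log2). Between depots in adipocyte nuclei, HSP90AA1 was 0.13 with no filter, 0.17 with at least 500 genes and 0.11 with the stricter gate. With 1 library left out it ran from -1.82 to 0.79, and HSPA8 from -2.36 (without intramuscular replicate 1) to 1.26. HSPA8 in progenitor nuclei was 0.013 with no filter and 0.16 with at least 500 genes. HSP90AA1 in mural nuclei was -0.033 with no filter and -0.044 with clusters.

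Between types, with at least 500 genes, the stricter gate, clusters and no satellite sum in that order, HSPA1A was -0.37, -0.20, -0.16 and -0.22 in progenitor nuclei and -0.091, -0.19, -0.44 and -0.28 in muscle fibre nuclei. ZFAND2A was -0.12, -0.24, -0.74 and -0.17 in endothelial nuclei, and HSP90AA1 -0.17, -0.24, -0.15 and -0.20 in mural nuclei. ZFAND2A in mural nuclei was -2.07 with at least 500 genes, -0.13 with the stricter gate, -0.35 without the satellite sum and -0.0022 by the Wald test. HSP90AA1 there was -0.0035 with DESeq2's size factors and -0.0034 by the Wald test, and CRYAB -0.034 with clusters. With 1 library left out, HSPA1A ran from -1.18 to 0.22 in adipocyte, -0.28 to 0.96 in progenitor, -0.42 to 2.79 in endothelial and -1.17 to 0.093 in mural nuclei. DNAJB1 ran from -0.35 to 0.12 in progenitor nuclei, HSPA8 from -0.39 to 0.63 in endothelial nuclei, and HSP90AA1 from -0.38 to 0.20 and ZFAND2A from -0.60 to 1.31 in mural nuclei. The cause was not tested.

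The intramuscular library of animal 2 limits depth, since a count of 0 there allows up to 28.4 CPM.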
